A study of Mus musculus with 10 samples.

Results

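Spry2, Spry4, Spred1, Dusp4, Dusp5, Dusp6, Etv4, Etv5, Egr1 and Ier2 are genes that cells switch on when the ERK kinases are active, among them several whose products then hold the pathway back. These 10 genes were chosen by symbol, as the rows of the deposited gene table whose name holds one of them, and make up 10 of 49624 gene names. They fill 11 rows, since Ier2 has 2, and none is merged with another gene. All 10 passed the filter on low values (a normalised count of at least 10 in at least 2 libraries) and so belong to the 16056 genes tested. Egr1 passed through the E14tg2a libraries alone.

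RNA was measured by single-end sequencing in 10 libraries of mouse embryonic stem cells derived from blastocysts, 2 libraries in each of 5 groups. The WT and KO groups are C57BL/6J cells with both Mof alleles floxed (Mof fl/fl) and the inducible recombinase Cre-ER TM, labelled wild type and Mof-KO. These cells had ethanol or 4-hydroxytamoxifen, which activates such a Cre, for 3 days, and the labels do not say which group had which. The Control, ETO and Released groups are the established line E14tg2a, given water, given etomoxir for 4 days, or given etomoxir and then kept for 4 more days without it. Mof, listed as Kat8 in the table, is a histone acetyltransferase, and etomoxir inhibits the carnitine palmitoyltransferases that carry long-chain fatty acids into mitochondria. Every group grew in 2i/LIF medium with PD0325901 (1 µM), CHIR99021 (3 µM) and LIF (1000 U/ml). PD0325901 inhibits MEK, the kinase that activates ERK, so the controls carry a block of this pathway as well. No group had 4-hydroxytamoxifen or active Cre with intact Mof as far as the labels say, and the promoter that drives Cre is not given. The labels call the libraries biological duplicates without naming separate cultures, and p-values reflect the spread between such duplicates alone, which may be technical.

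In the ERK pathway, fibroblast growth factors and other ligands bind receptor tyrosine kinases, which act through RAS, RAF and MEK on ERK. Active ERK raises transcription of immediate early genes, which need no new protein to be switched on, and of ETS family factors. It also induces Sprouty and Spred proteins, which act against RAS and RAF activation, and dual-specificity phosphatases, which remove the activating phosphates from ERK and related kinases. In mouse embryonic stem cells this pathway, driven largely by FGF4, is known for priming the cells for differentiation, and blocking MEK helps to hold them in the ground state.

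Per library, 10562100 to 13326200 normalised counts stood for an estimated 9783470 to 16778500 reads. A value of 0 allows up to 3 reads, which correspond to 2.07 to 4.04 normalised counts (counting error only). Kat8, the targeted gene, measured 433 and 357 normalised counts in WT and 222 and 205 in KO, a log2 change of -0.88 (SE 0.11, limma adjusted p = 3.64e-05), with all KO libraries below all WT libraries. The 11 of 12 embryonic stem cell markers with a row of their own summed to 51835 to 53222 normalised counts in WT, 48557 to 48848 in KO, 54242 to 54695 in Control, 31743 to 32414 in ETO and 56532 to 56595 in Released, and none was at 0. With other factors per library, the median log2 change of all genes shifted most when the total signal was used, by -0.16 for KO against WT, by 0.16 for ETO against Control and by -0.13 for Released against ETO. Rising genes made up 64.8% of all called genes for KO against WT, and 52.9%, 52.5% and 37.0% with TMM factors, median-of-ratios factors and total signal. For ETO against Control the share was 44.1%, and 57.0% with total signal. For Released against ETO it was 57.4%, and 45.8% with total signal, and for Released against Control 56.1%, and 66.5% with total signal. Tests are two-sided limma fits over all 10 libraries on log2(normalised count + 1), which understates the change of low genes, and a gene is called at an adjusted p under 0.05.

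Levels differed widely among the 10 genes. Compared per transcript length, as the mean FPKM of a group, Etv5 was the most abundant in every group, from 41.2 FPKM in ETO to 69.2 FPKM in Control. Etv4 (7.41 to 59.8 FPKM), Ier2 (18.8 to 45.5 FPKM) and Spry2 (16.9 to 37.8 FPKM) came next in WT, KO, Control and Released. Spred1 stayed between 5.73 and 10.3 FPKM, and Dusp6 between 4.52 and 12.9 FPKM. At the low end, Egr1 lay between 0.113 and 1.44 FPKM and Spry4 between 0.131 and 2.17 FPKM. Etv4 stood second of the 10 genes in Control at 41.9 FPKM and below Ier2, Spry2 and Dusp5 in ETO at 7.41 FPKM, while Dusp5 went from 0.359 FPKM, the lowest of the 10, to 10.5 FPKM.

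**Figure D1:**
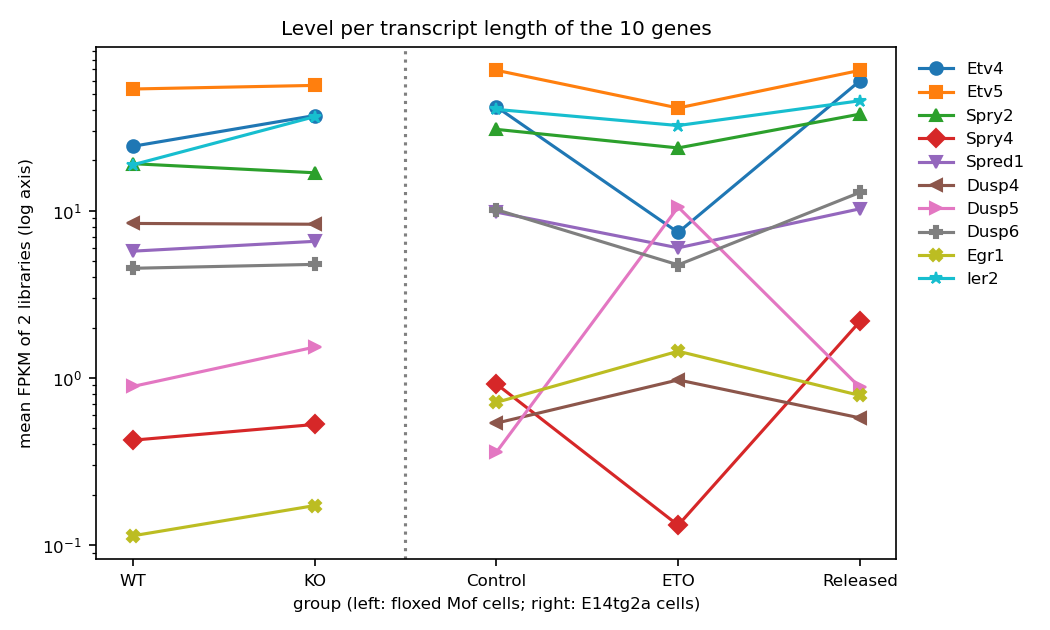
Mean FPKM (log axis) of each of the 10 genes in the 5 groups, with the floxed Mof cells left of the dotted line and E14tg2a cells right of it; each point is the mean of 2 libraries and lines join groups of 1 cell line. Etv5 is the top line in every group, and the lines of Etv4 and Dusp5 cross between Control (41.9 and 0.359 FPKM) and ETO (7.41 and 10.5 FPKM).

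The reference groups of the experiments, WT and Control, did not overlap for any of the 10 genes. Control was higher for 8 of them, by 1.25-fold (Etv5) to 6.29-fold (Egr1), where 4 and 6 estimated reads stood behind the WT values of Egr1. WT was higher for 2 of them. Dusp5, a nuclear phosphatase that acts on ERK, measured 30.1 ± 3.28 normalised counts (SD, n = 2) in WT and 12.2 ± 6.29 (SD, n = 2) in Control. Dusp4, another nuclear phosphatase of ERK and related kinases, measured 371 ± 28.3 (SD, n = 2) in WT and 24.6 ± 1.02 (SD, n = 2) in Control, 15.1-fold apart. These differences were not tested, and cell line, strain, vehicle and experiment cannot be told apart in them. The share of all tested genes for which WT and Control lie apart, or Control is higher, was not computed. Whether these counts are particular to the 10 genes is therefore not known.

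**Figure D2:**
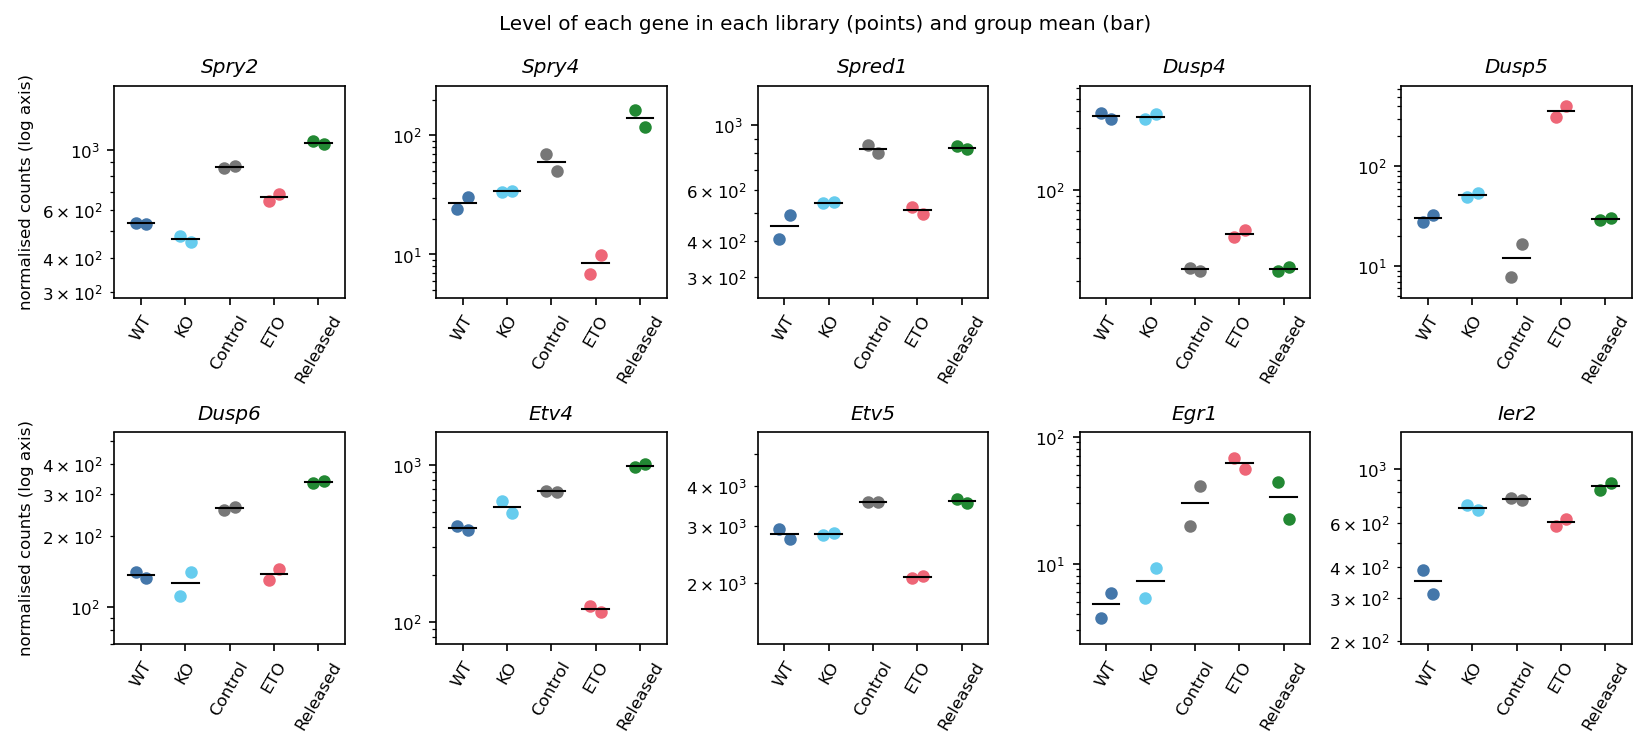
Normalised counts (log axis, with its own range per panel) of each of the 10 genes in the 10 libraries; points are libraries, coloured by group, and the bar is the group mean. Etv4 and Spry4 are lowest in ETO and highest in Released, Dusp5 and Egr1 are highest in ETO, and Dusp4 is highest in WT and KO.

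Etomoxir for 4 days was compared with water in E14tg2a cells to see how these genes behave when fatty acid entry into mitochondria is inhibited. All 10 genes were called, in opposite directions. The ETS factors Etv4 and Etv5, the inhibitors Spry2, Spry4 and Spred1, the phosphatase Dusp6 and the immediate early gene Ier2 fell, while Dusp4, Dusp5 and Egr1 rose. Over all tested genes 60.8% were called, 26.8% rising and 34.0% falling, against 3 rising and 7 falling here. The median log2 change was -0.53 over the 10 genes and -0.09 over all tested genes, and the median size of the change without its sign was 0.90 and 0.52. In bulk RNA, fewer cells of a type and less RNA per cell cannot be told apart. In the same libraries the embryonic stem cell markers had a lower sum, as given above. The 7 of 9 trophectoderm markers with a row of their own summed to 6377 to 6745 normalised counts in ETO and 1065 to 1077 in Control. Of these, 5 were higher in both ETO libraries than in both Control libraries. Krt8 measured 2116 and 2334 in ETO against 238 and 223 in Control, Krt18 2501 and 2618 against 29.7 and 44.6, and Krt7 309 and 337 against 16.5 and 16.6. The lineage factor Eomes measured 536 and 515 against 77.3 and 95.4, and Tfap2c 905 and 932 against 641 and 660. The lineage factor Cdx2 was lower, at 5.93 and 7.47 in ETO and 61.6 and 35.3 in Control, and Elf5 was at 3.95 and 1.66 in ETO and 1.10 and 2.08 in Control. The 7 of 8 primitive endoderm markers with a row summed to 562 to 591 in ETO and 231 to 252 in Control. Gata6 was at 129 and 125 against 11.01 and 14.5, Gata4 at 135 and 127 against 22.0 and 20.8, and Foxa2 at 24.7 and 26.6 against 5.50 and 4.15. Sox17 overlapped, at 5.93 and 7.47 against 1.10 and 6.23, and Sox7 was at or under 3 reads in both groups. The 7 markers of primed or formative epiblast, all with a row, had a lower sum in ETO, 928 to 1026 against 2379 to 2410. Dnmt3b was at 539 and 623 against 1777 and 1750, and T at 7.91 and 7.47 against 172 and 193. Otx2 was at 38.5 and 39.0 against 118 and 78.9, and Sox3, low in both groups, was also lower. Not all of the list fell. Foxd3 overlapped, at 333 and 347 in ETO against 332 and 342 in Control, and so did Pou3f1 and Fgf5. The 8 of 9 fibroblast markers with a row summed to 187 to 190 in ETO and 71.5 to 75.8 in Control. Most of this rise lay in Col1a1, at 152 and 154 against 39.6 and 40.5. Twist1 was also higher, Col1a2 (0 and 3.32 against 5.50 and 5.19) and Lum were lower, and Thy1 overlapped. Postn, Prrx1 and Dcn were at or under 3 reads in both groups. The part of these markers' cell types in the changes below was not tested.

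Etv4 and Etv5 are PEA3-type ETS factors that carry FGF and ERK signals to target genes. Etv4 lies on chromosome 11 from 101769742 to 101785371 (mm10, minus strand). Its Control libraries had 682 and 677 normalised counts, its ETO libraries 126 and 115, and its Released libraries 977 and 1010. The 3 groups were separate, with the ETO mean 5.66-fold below Control, a log2 change of -2.49 (SE 0.10, adjusted p = 2.05e-11). Etv5, on chromosome 16 from 22381309 to 22439719 (minus strand), gave 3549 and 3554 normalised counts with water, 2071 and 2100 with etomoxir, and 3648 and 3531 after release. Its ETO libraries lay 1.70-fold below Control on average, a log2 change of -0.77 (SE 0.06, adjusted p = 1.96e-08), and the Released range spans both Control values. Both paralogs thus fell, and Etv5 remained the most abundant of the 10 genes per length.

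Spry2, Spry4 and Spred1 act between the receptors and RAF. Spry2, on chromosome 14 from 105891947 to 105896819 (minus strand), had Control values of 853 and 870 normalised counts, ETO values of 647 and 687, and Released values of 1074 and 1051. It fell by 0.37 on the log2 scale under etomoxir (SE 0.08, adjusted p = 0.000599), and no libraries of the 3 groups overlapped. Spry4, the least abundant of the 3, measured 70.4 and 49.8 in Control and 163 and 117 in Released. Its ETO values were 6.92 and 9.96, which stand for 7 and 12 estimated reads, a mean 7.12-fold below Control and a log2 change of -2.69 (SE 0.28, adjusted p = 7.63e-07). All ETO libraries were below all others. The annotated small RNA genes Gm27369 and Gm27804 overlap Spry4 on the other strand. Spred1, on chromosome 2 from 117121374 to 117182279 (plus strand), gave 854 and 800 with water, 524 and 494 with etomoxir, and 847 and 831 after release. It fell by 0.70 (SE 0.09, adjusted p = 9.60e-06), and its Released and Control libraries overlapped. Not every Sprouty gene fell. Spry1, which is outside the 10, measured 51.1 and 57.0 in Control and 153 and 181 in ETO, a log2 change of 1.61 (adjusted p = 9.46e-06).

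The 3 phosphatase genes did not move together. Dusp6 encodes a cytoplasmic phosphatase selective for ERK, Dusp5 a nuclear one for ERK, and Dusp4 a nuclear one with more substrates. Dusp6, on chromosome 10 from 99263231 to 99267489 (plus strand), had 256 and 265 normalised counts with water, 130 and 145 with etomoxir, and 333 and 340 after release. Its ETO mean was 1.89-fold below Control, a log2 change of -0.92 (SE 0.13, adjusted p = 2.67e-05), with no overlap. Dusp5, on chromosome 19 from 53529109 to 53542431 (plus strand), measured 7.71 and 16.6 in Control, from 7 and 16 estimated reads, then 313 and 399 in ETO, and 28.9 and 30.5 in Released. It was the largest rise of the 10 genes, 29.3-fold between the means, with a log2 change of 4.84 (SE 0.29, adjusted p = 1.55e-09). An antisense gene, AC137853.2, overlaps Dusp5 in the annotation, and whether counting used strand is not given in the sources used here. Dusp4, on chromosome 8 from 34807297 to 34819894 (plus strand), gave 25.3 and 23.9 with water, 43.5 and 49.0 with etomoxir, and 24.1 and 25.8 after release, a log2 change of 0.88 under etomoxir (SE 0.17, adjusted p = 0.000349). Its ETO libraries were above all others of the line but below the 348 to 391 of WT and KO.

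RefSeq (GRCm38.p6) gave the 250 bases before the start for 5 of the 10 genes, Spry2, Spred1, Dusp5, Dusp6 and Etv5. Dusp5 and Dusp6 are shown because they encode phosphatases of the same kinase and moved in opposite directions under etomoxir, and capitals mark CArG boxes, the motif that serum response factor binds. The Dusp5 window is chr19:53528895-53529144 (plus strand) and the Dusp6 window chr10:99262981-99263230 (plus strand), each written 5′ to 3′ towards the start.
Dusp5: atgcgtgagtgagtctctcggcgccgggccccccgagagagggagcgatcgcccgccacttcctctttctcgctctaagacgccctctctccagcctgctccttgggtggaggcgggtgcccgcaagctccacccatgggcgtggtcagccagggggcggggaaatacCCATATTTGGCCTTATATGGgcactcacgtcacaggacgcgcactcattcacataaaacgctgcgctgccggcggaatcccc
Dusp6: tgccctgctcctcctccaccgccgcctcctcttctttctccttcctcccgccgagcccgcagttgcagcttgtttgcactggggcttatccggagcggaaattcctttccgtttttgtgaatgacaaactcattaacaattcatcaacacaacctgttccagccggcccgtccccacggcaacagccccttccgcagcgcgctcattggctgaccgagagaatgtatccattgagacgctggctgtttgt
The Dusp5 window holds 2 adjacent CArG boxes, CCATATTTGG at 82 to 73 bases before the start and CCTTATATGG at 72 to 63 bases before it, and this motif reads alike on both strands. None of the other 5 windows of these genes (Etv5 has 2) holds it. A CArG box occurs in 1.47% of all 32851 windows of this length. The CRE (TGACGTCA, in 1.55% of windows), the AP-1 site (TGANTCA, 6.75%), the EGR site (GCGTGGGCG, 0.536%), the ETS site (CCGGAAGT, 2.88%) and the TATA box (TATAAA, 12.4%) were searched on both strands and have no match in the 6 windows. These letters describe the windows and do not show that a factor binds there.

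The immediate early genes Egr1 and Ier2 encode a zinc finger factor and a small nuclear protein that growth factors induce within minutes. Egr1 had Control values of 19.8 and 40.5 normalised counts, ETO values of 67.2 and 55.6, and Released values of 44.1 and 22.3. The ETO libraries were highest, with a log2 change of 1.08 (SE 0.43, adjusted p = 0.0418), while Control and Released overlapped. The call was lost without Control replicate 1 (0.58, adjusted p = 0.352), ETO replicate 1 (adjusted p = 0.184) or ETO replicate 2 (adjusted p = 0.0901), and in FPKM (adjusted p = 0.0870). Ier2, with both rows summed, gave 761 and 745 with water, 588 and 625 with etomoxir, and 822 and 874 after release. It fell by 0.31 under etomoxir (SE 0.10, adjusted p = 0.0127), a call lost with each other scaling (adjusted p from 0.0708 to 0.237), in FPKM (0.0584), and without Control replicate 1 (0.0724), Control replicate 2 (0.0505) or ETO replicate 1 (0.0898).

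**Figure D3:**
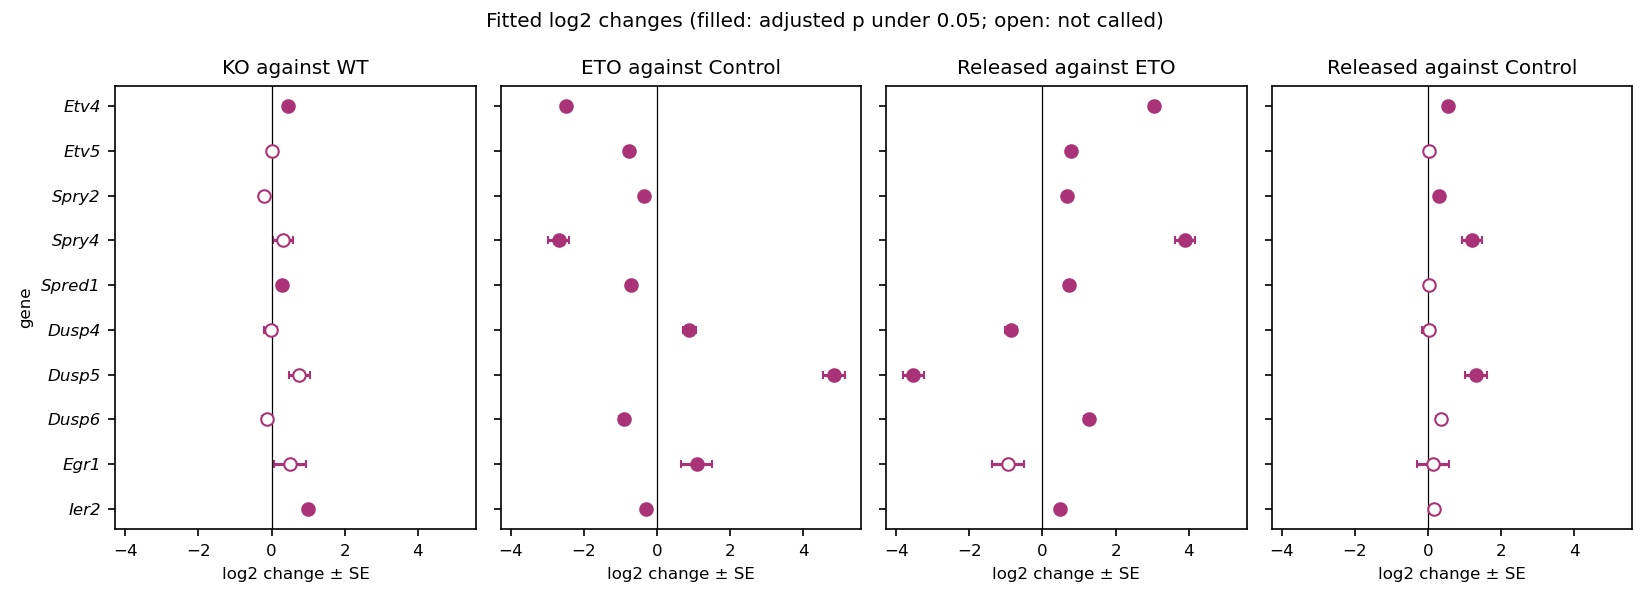
Fitted log2 change with its SE (horizontal axis) of each of the 10 genes (vertical axis, ordered by role) in the 4 comparisons; filled points are called at an adjusted p under 0.05 and open points are not. Under etomoxir Dusp5 stands at 4.84 and Spry4 and Etv4 at -2.69 and -2.49. In Released against ETO each of these has the opposite sign, while in Released against Control Dusp5 keeps its sign, at 1.31.

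Released was compared with ETO and with Control to follow the genes 4 days after etomoxir was removed. These comparisons share libraries with the one above, so their values are set side by side and are not independent. Against ETO, 7 of the 10 genes rose and 2 fell, where 57.7% of all tested genes were called, 33.1% rising and 24.6% falling. Etv4 rose 8.28-fold between the means (log2 change 3.04, SE 0.10, adjusted p = 5.05e-12) and Spry4 16.6-fold (3.90, SE 0.28, adjusted p = 1.53e-08). Dusp6 (1.28), Etv5 (0.78), Spred1 (0.72), Spry2 (0.67) and Ier2 (0.48) rose by less, with adjusted p from 1.92e-08 to 0.000637. Dusp5 fell by 3.53 (SE 0.29, adjusted p = 6.38e-08) and Dusp4 fell by 0.86 (SE 0.17, adjusted p = 0.000474). Egr1 had a log2 change of -0.94 (SE 0.43, adjusted p = 0.0758), although both of its Released libraries lay below both ETO libraries. It was called as a fall with total signal (-1.07, adjusted p = 0.0473), a pseudocount of 5 (0.0385), a fit per experiment (0.0341) and without Released replicate 1 (-1.42, adjusted p = 0.0378), and was at -0.46 without Released replicate 2 (adjusted p = 0.487).

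Against Control, 4 of the 10 genes were higher in Released and none was lower by limma, where 12.5% of all tested genes were called, 7.03% rising and 5.51% falling. No gene of the 10 was lower at an unadjusted p under 0.05 either. Marker sums were also higher in Released than in Control, at 587 to 669 against 231 to 252 normalised counts for primitive endoderm (Dab2 at 503 and 584 against 209 and 182). They were 1547 to 1613 against 1065 to 1077 for trophectoderm, 2835 to 2876 against 2379 to 2410 for primed or formative epiblast, and 107 to 108 against 71.5 to 75.8 for fibroblast. Not all members of these lists were higher. Tfap2c was lower in Released, at 567 and 601 against 641 and 660, and Cdx2, T, Otx2 and Col1a1 were among those that overlapped. The part of these markers' cell types in the changes was not tested. Dusp5 had a log2 change of 1.31 (SE 0.29, adjusted p = 0.00828), with Released values of 28.9 and 30.5 against 7.71 and 16.6. Without Control replicate 1 its change was 0.80 (adjusted p = 0.0966) and without Control replicate 2 it was 1.82, and the call was also lost without trend and robustness (adjusted p = 0.0563). Spry4 had 1.21 (SE 0.28, adjusted p = 0.0114), Etv4 0.55 (SE 0.10, adjusted p = 0.00230) and Spry2 0.30 (SE 0.08, adjusted p = 0.0171). Etv4, Spry4 and Spry2 thus measured lower than Control in ETO and higher in Released, whereas Dusp5 measured higher in both. Dusp6 (0.37, adjusted p = 0.0893) and Ier2 (0.17, adjusted p = 0.288) lay above Control in both libraries and were not called, although Dusp6 was in a fit per experiment (adjusted p = 0.0195). For Etv5 the change was 0.02, with a 95% interval from -0.11 to 0.14, for Spred1 0.02 (-0.18 to 0.22), for Dusp4 0.02 (-0.34 to 0.38) and for Egr1 0.14 (-0.78 to 1.06). In FPKM none of the 4 calls was made (limma adjusted p = 0.0883 to 0.159), and 5 genes, these and Dusp6, were higher at an unadjusted p under 0.05. Without Control replicate 1, Control replicate 2 or Released replicate 2 there were 2 calls, and without Released replicate 1 there was 1, Etv4, which was called in each of these fits.

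The Mof knockout was compared with wild type to ask how the genes differ when Mof is deleted. Ier2, Etv4 and Spred1 rose and no gene of the 10 was called as falling by limma, while the other 7 were not called. In all 37.9% of tested genes were called, 24.6% rising and 13.3% falling. The median log2 change was 0.29 over the 10 genes and 0.08 over all tested genes, and the median size without its sign was 0.29 and 0.31. At an unadjusted p under 0.05, Spry2 was lower. The embryonic stem cell markers summed lower in KO than in WT, but did not move together. Esrrb measured 13446 and 12709 in KO against 17996 and 16807 in WT, and Pou5f1, Tbx3 and Tdgf1 were also lower in both KO libraries. Nanog measured 6307 and 6597 against 5011 and 5096, and Zfp42 and Klf4 were also higher. The other markers with a row overlapped between the groups. Higher sums were seen for trophectoderm (1919 to 1946 against 1528 to 1561 normalised counts) and for primed or formative epiblast (1175 to 1210 against 977 to 989). Cdx2 and Fgf5 were at 0 in all 4 libraries. In the trophectoderm list, Tfap2c measured 1337 and 1423 in KO against 1080 and 1056 in WT, and Eomes 146 and 110 against 35.2 and 77.0. Krt7, Krt8 and Krt18 overlapped between the groups. Primitive endoderm markers summed to 98.2 to 105 against 105 to 110, and fibroblast markers to 38.0 to 48.4 against 35.3 to 47.2. The part of these in the changes was not tested.

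Etv4 measured 405 and 383 normalised counts in WT and 588 and 492 in KO, all KO libraries above WT, a log2 change of 0.45 (SE 0.10, adjusted p = 0.00262). Etv5 measured 2933 and 2733 in WT and 2820 and 2865 in KO. Its libraries overlapped, and its change of 0.01 (SE 0.06, adjusted p = 0.955) had a 95% interval from -0.12 to 0.13 on the deposited scale. It was -0.07 with TMM or median-of-ratios factors and -0.16 with total signal (adjusted p = 0.0422).

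Spred1 measured 407 and 492 in WT and 539 and 545 in KO, a log2 change of 0.28 (SE 0.09, adjusted p = 0.0294). This call was lost with TMM factors (0.20, adjusted p = 0.09996), in FPKM (adjusted p = 0.331), and without WT replicate 1 (0.14, adjusted p = 0.262), KO replicate 1 (0.0818) or KO replicate 2 (0.101). Spry2 measured 539 and 533 in WT and 480 and 456 in KO. Its KO libraries were both lower, with a change of -0.20 (SE 0.08, adjusted p = 0.0548) that was called as a fall with TMM factors (-0.27, adjusted p = 0.0122), median-of-ratios factors (-0.27, adjusted p = 0.0114) and total signal (-0.36, adjusted p = 0.00186). Spry4 measured 24.1 and 30.4 in WT and 33.6 and 34.0 in KO, a change of 0.31 (SE 0.28, adjusted p = 0.417) with a 95% interval from -0.29 to 0.92.

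Among the phosphatases, Dusp5 measured 27.8 and 32.4 in WT and 49.8 and 53.7 in KO. The groups did not overlap, and the change of 0.77 (SE 0.29, adjusted p = 0.0504) just missed the threshold. In fits without Control replicate 1 or Control replicate 2 the adjusted p was 0.0140 and 0.0162. It was 0.171 without WT replicate 1, 0.104 and 0.160 without KO replicate 1 and 2, 0.0778 with TMM factors, 0.123 with total signal and 0.137 in FPKM. Dusp6 measured 141 and 133 in WT and 112 and 140 in KO, and Dusp4 391 and 351 in WT and 348 and 381 in KO. Both overlapped between the groups, with changes of -0.13 (95% interval from -0.41 to 0.16) and -0.03 (-0.39 to 0.34).

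Of the immediate early genes, Egr1 was at 3.70 and 5.89 normalised counts in WT and 5.38 and 9.16 in KO, which stand for 4 to 7 estimated reads, and a difference was not detectable at this depth (0.50, 95% interval from -0.42 to 1.42). Ier2, on chromosome 8 from 84661331 to 84662852 (minus strand), measured 390 and 311 in WT and 709 and 679 in KO. Its KO libraries were far above WT, 1.98-fold between the means, with a log2 change of 0.99 (SE 0.10, adjusted p = 3.93e-06). The table holds Ier2 in 2 rows, and what sets them apart is not stated in it. The first row measured 232 and 132 in WT and 212 and 238 in KO, overlapping groups with a change of 0.35 (SE 0.29, adjusted p = 0.390). The second measured 158 and 179 in WT and 497 and 442 in KO, with no overlap and a change of 1.48 (SE 0.17, adjusted p = 1.84e-05). The split between the rows also differed between replicates: the second row held 37.2% of Ier2 in Control replicate 1 and 61.9% in Control replicate 2, whose sums were 761 and 745. Taken apart, neither row was called for ETO against Control (adjusted p = 0.227 and 0.607) or Released against ETO (0.0851 and 0.125).

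**Figure D4:**
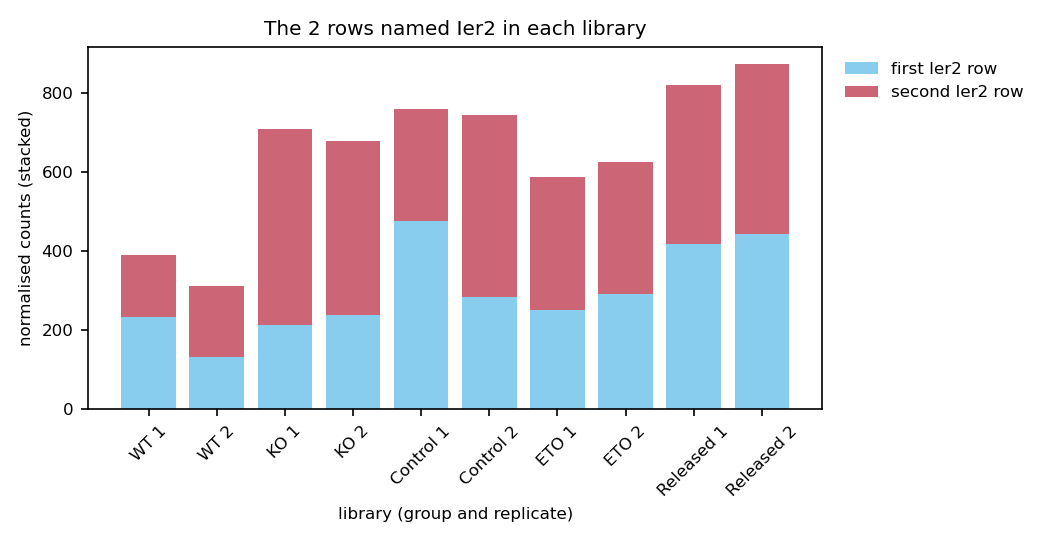
Normalised counts of the 2 rows named Ier2, stacked, in each of the 10 libraries (horizontal axis); the height of a bar is the summed value used in the tests. The KO bars (709 and 679) stand above the WT bars (390 and 311), mostly through the second row, and the Control replicates differ in their split but not much in height.

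The KO and ETO changes themselves were compared, each within its own cell line. They differed for 8 of the 10 genes, where 54.5% of all tested genes were called, 32.3% with the KO change higher and 22.2% lower. The KO change was higher than the ETO change for Spry4 (difference 3.00, SE 0.40, adjusted p = 1.41e-05), Etv4 (2.94, SE 0.14, adjusted p = 7.38e-10), Ier2 (1.30, SE 0.14, adjusted p = 1.58e-06), Spred1 (0.98), Dusp6 (0.79) and Etv5 (0.77). It was lower for Dusp5 (-4.08, SE 0.41, adjusted p = 8.89e-07) and Dusp4 (-0.91, SE 0.24, adjusted p = 0.00505). No difference was called for Spry2 (0.17, 95% interval from -0.06 to 0.40) or Egr1 (-0.58, 95% interval from -1.89 to 0.73). The call of Dusp6 was lost with total signal (adjusted p = 0.0538) and that of Dusp4 in FPKM (adjusted p = 0.0678). Line and treatment cannot be told apart in these differences.

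In 8 lists, 133 other genes of the pathway were read in the same fits. Of these genes 124 have a row of their own, 8 lie in merged rows, and 114 were tested. Under etomoxir 58 of the 114 rose and 31 fell (78.1% called), where 60.8% of all tested genes were called, 26.8% rising and 34.0% falling. In KO 48 rose and 7 fell (48.2% called), where 37.9% of all tested genes were called, 24.6% rising and 13.3% falling. The counts of each list below stand beside these same shares.

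At the top of the pathway, all 3 tested FGF ligands fell under etomoxir. Fgf4, the main FGF of these cells, had 2842 and 2761 normalised counts with water, 1913 and 1921 with etomoxir, and 2661 and 2703 after release (ETO log2 change -0.55, SE 0.06, adjusted p = 4.96e-07). None of the 3 was called in KO by limma, nor had an unadjusted p under 0.05. Of 10 tested receptors 7 rose and 1 fell under etomoxir (60.8% called over all genes, 26.8% rising). Egfr (3.19), Met (2.41) and Erbb3 (1.19), receptors for other growth factors, rose and Kit, the stem cell factor receptor, fell by 1.29. In KO 4 rose, among them Egfr (1.52) and Fgfr1 (0.60), and 2 fell, Insr (-0.99) and Fgfrl1 (-0.62). Of 11 adaptors and exchange factors 6 rose and 1, Grb2 (-0.64), fell under etomoxir, and 3 rose in KO, Shc1 (0.62), Sos1 (0.34) and Frs2 (0.22).

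Of the 15 tested genes from RAS to the RSK kinases, 5 rose and 8 fell under etomoxir (60.8% called over all genes, 34.0% falling). Nras fell by 0.81, Mapk3 (ERK1) by 0.84 and Map2k1 (MEK1) by 0.47. In KO 5 rose, among them Hras (0.63), and 1, Mapk3, fell by 0.50, a share of the list near the 37.9% called over all genes. Of 7 GTPase activators of RAS, which switch it off, 2 rose and 1 fell under etomoxir, where 60.8% of all genes were called. In KO 2 rose and 1 fell as well, where 37.9% were called. Rasa3 was at 1.04 under etomoxir and -0.38 in KO.

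Of 19 genes in the list of other feedback inhibitors, 9 rose and 4 fell under etomoxir, a share near the 60.8% called over all genes. Dusp1, a nuclear phosphatase of stress kinases and ERK, rose from 423 and 434 normalised counts to 1970 and 2103 (2.25, SE 0.09, adjusted p = 1.59e-11). Dusp8 and Dusp16, phosphatases of the stress kinases JNK and p38, rose by 6.05 and 1.61, Dusp8 from 13.2 and 8.30 to 737 and 783. Flrt3, which is in the list as a partner of FGF receptors and not as an inhibitor, fell by 1.80. In KO 8 rose and 1 fell (37.9% called over all genes), with Dusp8 at 2.29, Dusp14 at 0.85 and Il17rd, a membrane inhibitor of FGF signalling, at 0.38. Dusp8 was low in WT, at 13.0 and 4.91 normalised counts against 55.2 and 34.0 in KO (SE 0.35). Of 14 tested ETS, SRF and CIC factors 6 rose and 5 fell under etomoxir, with Ets1 at 2.88, Ets2 at 0.79, Etv6 at -0.82 and Gabpa at -0.72. In KO 6 rose and none fell by limma (1, Atxn1l, at an unadjusted p under 0.05). Among those that rose were the ETS repressor Erf (0.68) and the repressor Cic (0.39).

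Among 35 other immediate early genes, 23 rose and 8 fell under etomoxir (26.8% rising and 34.0% falling over all genes), with a median log2 change of 1.26 beside -0.09 over all tested genes. Atf3, a stress-induced factor, rose by 5.50 from 31.9 and 24.9 to 1299 and 1342 normalised counts. Jun, a subunit of AP-1, rose by 4.62, Plk2 by 2.23 and Btg2 by 1.69. In KO 20 of the 35 rose and 2 fell (24.6% and 13.3% over all genes), with a median of 0.45 beside 0.08, and Atf3 rose by 1.81, Cyr61 by 1.12 and Plk2 by 0.79.

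**Figure D5:**
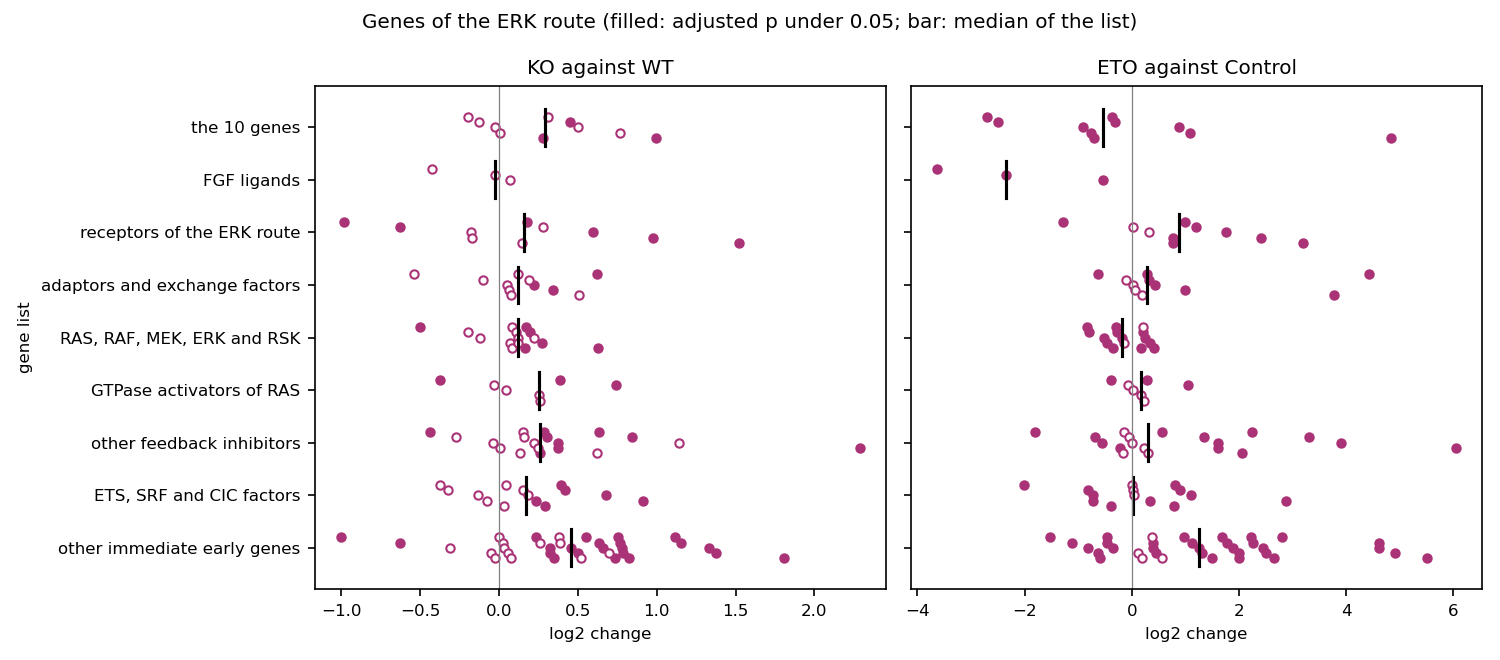
Log2 change (horizontal axis) of each tested gene in the 10 genes and in 8 lists of the pathway, for KO against WT (left) and ETO against Control (right); each point is a gene, filled when called at an adjusted p under 0.05, and the bar is the median of its list. Under etomoxir the median bar of the other immediate early genes is furthest right (1.26) and that of the FGF ligands furthest left (-2.34).

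Genes with a like pattern were sought among those with a mean of at least 100 normalised counts, by the root mean square difference of log2 values over the 10 libraries after centring each gene on its mean. Spred1 and Etv5, whose group means span less than 1 on the log2 scale, were left out. Nearest to Etv4 was Rcor2 (0.20, where the median over all candidates was 1.05). Nearest to Spry4 were Utf1, an embryonic stem cell marker (0.39), and Etv4 (0.46, median 1.30). For Dusp5 they were App (0.34) and Jun (0.35, median 1.71), and for Dusp4 Ccdc170 (0.30, median 1.77). Umps was nearest to Spry2 (0.04, median 0.54), Nudt1 to Dusp6 (0.12, median 0.65), and Peg10 to Egr1 (0.39, median 1.42). Ier2 was nearest to Nr1h2 (0.07) and had Erf next (0.12, median 0.55). All these distances come from the same 10 libraries, include the difference between the lines, and are descriptions without a test.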

How the data were processed

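Single-end RNA-seq of 10 mouse embryonic stem cell libraries, made with the Illumina TruSeq protocol per the labels' protocols, was aligned with TopHat2 2.1.1 to mm10, and SAMtools 1.5 and deepTools are also named, per the submitters' processing notes. The program that made the gene tables and its use of strand are not given in the sources used here. The deposited count table holds a normalised signal, that is, reads scaled by a single factor in each library. Values stepped by 0.689 to 1.35 per read, and 88.9% to 90.3% of low values (under 20 reads) were whole within 0.1 read (84.4% to 85.6% of all values), so no count model was fitted. The deposited FPKM table holds FPKM values per the file headers, and was used to compare levels between genes and as an alternative.

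Rows of 1 gene name were summed (556 names had more than 1 row) and 1314 merged rows kept whole. Genes with at least 10 normalised counts in at least 2 libraries were tested as log2(value + 1), with 1 mean per group, in limma 3.58.1 (R 4.3.3) with an intensity trend and robust empirical Bayes, Benjamini-Hochberg adjusted over all tested genes. After their values were seen, 2 mitochondrial rows listed at 0 in Released replicate 1 were left out. The procedure was tested on simulated data. The 10 genes, the lists and the tests were chosen with earlier results of these data known. Named genes are the 10, Kat8, up to 4 called genes per list and comparison with the smallest adjusted p and groups that do not overlap, marker genes, and the 3 most alike genes of each of the 10 with group means spanning at least 1 on the log2 scale, of which those nearest are printed. Replicate numbers did not pair the libraries (correlations of deviations from -0.04 to 0.08). Other scalings, FPKM, pseudocounts, filters, fits and left-out replicates were tried. Some genes of the lists are not reported here by name. Python 3.11.15, numpy 2.4.6, pandas 2.3.3 and matplotlib 3.10.9 were used.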

Additional observations from a re-analysis of the deposited data

How the results depend on the processing

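Over all alternatives, the log2 changes of the 10 genes kept their direction and their side of the threshold in 971 of the cases tried. They were reversed in 18, whether called or not. With the direction kept, they were newly called in 14 and no longer called in 47. Among the reversed, Etv5 in KO with total signal was called (-0.16, limma adjusted p = 0.0422). Many alternatives, such as a left-out library of a group outside the comparison, another filter or the replicate block, cannot alter the log2 change itself. For these the direction was fixed in advance, and only the call could change. The changes of call that matter most stand beside the results.

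Leaving out 1 library at a time, the number of the 10 genes called ranged from 2 to 4 for KO against WT, 8 to 10 for ETO against Control, 9 to 10 for Released against ETO and 1 to 4 for Released against Control, and was 8 throughout for the difference between KO and ETO changes. The number of all genes called ranged from 4635 to 5912, 8357 to 10161, 7554 to 9685, 770 to 2864, and 7702 to 8668, in the same order. The change of Etv5 in KO ranged from -0.045 to 0.057, of Dusp4 in KO from -0.10 to 0.052 and of Dusp6 in KO from -0.29 to 0.036. Against Control after release, Egr1 ranged from -0.36 to 0.64, Spred1 from -0.026 to 0.068, Dusp4 from -0.027 to 0.066 and Etv5 from -0.0084 to 0.039.

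In FPKM, 2959 genes were called in KO (6086 on the main scale) and 348 in Released against Control (2012), with 0 of the 10 in the latter. Dusp6 was at 0.072 in KO, and Etv5 at -0.0021 after release. A fit per experiment called 3662 genes in Released against Control and a fit without trend and robustness 1171. A minimum of 50 normalised counts called 5 of the 10 in KO. Etv5 in KO was at -0.069 with TMM factors, -0.072 with median-of-ratios factors and -0.16 with total signal. The difference for Spry2 was -0.0098 with median-of-ratios factors and -0.16 with total signal. The causes were not tested. With the replicate number as a block, Dusp5 was called in KO (adjusted p = 0.0296, 4 of the 10 called), and no other call of the 10 changed. Depth limits Egr1 in WT and KO (4 to 7 reads), Spry4 in ETO and Dusp5 in Control.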

Other observations

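After release, members of the pathway lists that differed from Control were mostly higher, 21 of 114 tested against 7 lower (24.6% called, 12.5% over all tested genes). Of the other immediate early genes 13 of 35 were higher and none was lower by limma (2, Mcl1 and Sgk1, at an unadjusted p under 0.05). Those higher included Plk2 (2034 and 2236 normalised counts against 1219 and 1188, log2 change 0.83), Btg2 (0.70), Jun (1.76) and Atf3 (1.62). Dusp8 stood at 65.4 and 68.0 against 13.2 and 8.30 (2.56, adjusted p = 0.000306), and Spry1, another Sprouty gene, at 146 and 86.4 against 51.1 and 57.0 (1.04, adjusted p = 0.00484). Mapk3 (-0.43) and Nras (-0.19), which encode ERK1 and a RAS protein, and Kit (-0.33) were lower. The Released libraries share their Control with the etomoxir comparison.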
